A study of Homo sapiens with 2 samples.

Results

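Cardiolipin is a phospholipid built in the mitochondrial inner membrane, and phosphatidylserine is made in the ER and in part moves there. Their synthesis and transport was followed through 9 genes, PTDSS1, PTDSS2, PISD, PGS1, PTPMT1, CRLS1, TAZ, PRELID1 and STOML2. They were chosen by name and role, and each was found as 1 row in both gene tables, which hold 25277 rows each. RNA sequencing compared HEK293 cells, a human embryonic kidney line, of wild-type (WT) genotype with PERK-KO cells, in which the ER-resident kinase PERK had been knocked out with CRISPR/Cas9. Both cultures were kept for 12 h in OXPHOS medium, in which galactose and pyruvate replace glucose so that cells depend on oxidative phosphorylation. There was 1 sample of each genotype. The knockout cells were seeded as single cells and kept as clones, and the guide behind the sequenced clone is not given in the sources used here. Genotype, clone and library therefore cannot be told apart, and no difference below has a replicate error or a test.

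Values are FPKM, fragments counted per exon length and per number of mapped reads, each with the lower and upper confidence limit deposited for that library. EIF2AK3, which encodes PERK, had an FPKM of 5.61 (limits 5.11 to 6.12) in WT and 3.89 (3.44 to 4.34) in PERK-KO cells, with separate limits. FPKM counts transcripts whether or not they can be translated into PERK. Of the markers looked up for the line, KRT8, KRT18 and VIM lay between 202 and 640 in both libraries, LHX1 was at 4.65 and 2.88, and PAX2 was below 1 in both. ALB, HBB and UCP1 were listed at 0 in both libraries, PTPRC was at 0.108 and 0.180, and ADIPOQ at 1.68 and 1.42. Read numbers per library are not in the files, so the depth is unknown.

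Phosphatidylserine is made in the ER, in large part at sites that touch mitochondria, by 2 enzymes that exchange the head group of existing phospholipids for serine. Part of it moves to the mitochondrial inner membrane, where it is decarboxylated to phosphatidylethanolamine. Cardiolipin is built in the inner membrane itself from phosphatidic acid, by way of CDP-diacylglycerol, phosphatidylglycerophosphate and phosphatidylglycerol, and its acyl chains are then exchanged. It is concentrated in cristae, where it binds the respiratory complexes, and loss of its remodelling enzyme causes Barth syndrome.

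The transcripts of the 9 genes differed little between WT and PERK-KO cells. The largest difference was that of PRELID1, 1.20-fold lower in PERK-KO cells, and none of the 9 passed the size threshold, a log2 difference of 0.575 either way, which is just under 1.5-fold. Among the 14594 genes at an FPKM of 1 or more in either library, which are called the tested genes here, 7.83% were lower and 10.5% higher by more than that. The confidence limits of the libraries did not overlap for 4 of the 9 genes. PTDSS2, PRELID1 and STOML2 were the 3 that were lower in PERK-KO cells, where 18.7% of all tested genes were lower by the same criterion, and PTDSS1 was the 1 that was higher, against 26.1%. Together this is 44.4% of the 9 genes and 44.8% of all tested genes. The median log2 ratio of PERK-KO over WT was 0.01 for the 9 genes and 0.04 for all tested genes. In such bulk RNA, a change in the amount per cell cannot be told apart from a change in the number of cells that carry the transcript.

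**Figure D1:**
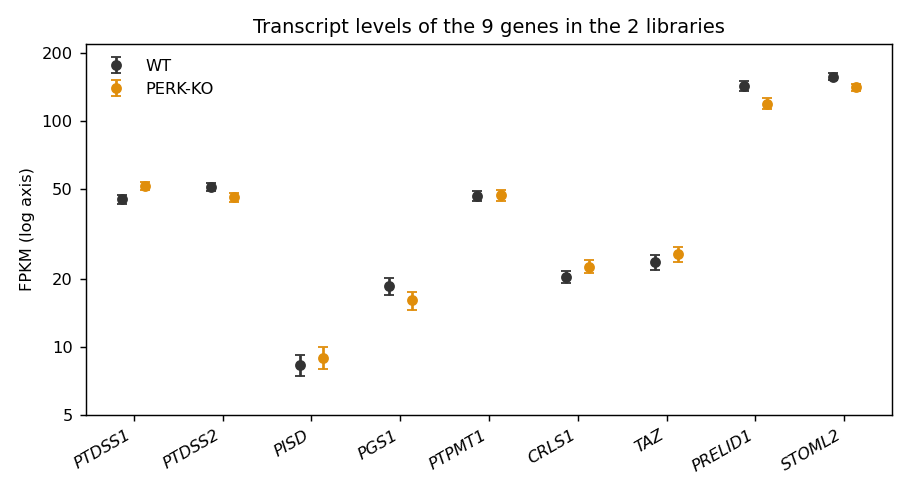
FPKM (log axis) of the 9 genes in the WT and PERK-KO libraries, 1 sample each; points are the values and bars the deposited confidence limits. STOML2 and PRELID1 stand above the rest in both libraries, PISD is lowest, and PTDSS1 and PTDSS2 change places.

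The 9 genes covered a wide range of levels, and their order was much the same in both libraries. STOML2 was highest with 157 in WT and 141 in PERK-KO cells, above 95.3% and 95.2% of tested genes. PISD was lowest with 8.38 and 8.99, near the middle of the tested genes at percentile 46.7 in both. In WT cells the limits separated STOML2 from PRELID1, PRELID1 from PTDSS2, PTDSS1 from TAZ, TAZ from CRLS1 and PGS1 from PISD. PTDSS2, PTPMT1 and PTDSS1 followed each other in that order with overlapping limits between neighbours, as did CRLS1 and PGS1. In PERK-KO cells the same middle group ran PTDSS1, PTPMT1, PTDSS2. There the limits of TAZ and CRLS1 overlapped, and those of CRLS1 and PGS1 were separate.

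The 2 enzymes of phosphatidylserine synthesis differed in opposite directions between the libraries. PTDSS1, phosphatidylserine synthase 1, which takes phosphatidylcholine as its substrate, lies at 97274167 to 97346774 on chromosome 8 (genome build GRCh37), with 13 exons in the canonical form. It had an FPKM of 45.1 (limits 43.2 to 47.1) in WT and 51.8 (49.5 to 54.1) in PERK-KO cells. Its log2 ratio was 0.20, with an interval of 0.11 to 0.29 when the limits of both libraries are combined. PTDSS2, which takes phosphatidylethanolamine instead, lies on chromosome 11 from 450280 to 491387 and has 12 exons. Its FPKM was 51.4 (49.2 to 53.5) in WT and 46.1 (43.9 to 48.2) in PERK-KO cells, which is a log2 ratio of -0.16 (-0.25 to -0.07). For neither gene did the limits of the libraries overlap.

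As deposited, the order of the 2 synthases was inverted between the libraries, while their sum stayed close. PTDSS1 stood at 0.878 of PTDSS2 (interval 0.827 to 0.933) in WT and at 1.12 (1.06 to 1.20) in PERK-KO cells. The log2 change of this ratio was 0.36 (0.23 to 0.48), which no single scaling factor between the libraries alters. The summed FPKM of both genes was 96.5 in WT and 97.9 in PERK-KO cells. The canonical transcript of PTDSS1 is 4990 bases long and that of PTDSS2 2458, and ratios between these libraries moved with transcript length, as described further on. With the median ratio of genes of like length subtracted from each, a step added for these ratios after seeing the data, PTDSS1 stood at 0.966 of PTDSS2 in PERK-KO cells. By that value, for which no interval was computed, the order was no longer inverted. The log2 change was 0.14 (0.01 to 0.26).

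PISD encodes the inner membrane enzyme that decarboxylates phosphatidylserine to phosphatidylethanolamine. Its row covers chromosome 22 from 32014477 to 32026810, on the minus strand, whereas the canonical GENCODE transcript, with 8 exons, extends to 32058201, so the row does not reach the start of that transcript. The FPKM was 8.38 (7.48 to 9.27) in WT and 8.99 (8.01 to 9.98) in PERK-KO cells, which is a log2 ratio of 0.10 (-0.12 to 0.32). A difference was not detectable at this precision, and the interval covers higher as well as lower levels in PERK-KO cells. PISD shares 61 bases with SFI1 on the opposite strand, which had 4.78 and 6.18.

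The 3 enzymes that build cardiolipin step by step had limits that overlapped between the libraries. PGS1, which makes phosphatidylglycerophosphate and so commits CDP-diacylglycerol to this route, lies on chromosome 17 from 76374735 to 76420639. It had 18.6 (17.03 to 20.2) in WT and 16.1 (14.6 to 17.6) in PERK-KO cells, which is a log2 ratio of -0.21, and the combined interval of -0.39 to -0.03 stayed just below 0. PGS1 shares 862 bases with DNAH17 on the opposite strand, which was below 1 in both libraries. PTPMT1, the phosphatase that turns phosphatidylglycerophosphate into phosphatidylglycerol, lies on chromosome 11 from 47586982 to 47595013. With 46.9 (44.5 to 49.3) in WT and 47.1 (44.6 to 49.6) in PERK-KO cells it was the member closest to equal, with a log2 ratio of 0.01 (-0.10 to 0.11). Its row shares 1265 bases with that of KBTBD4 on the opposite strand, which had 21.0 and 18.7. Since strand-specific counting is not stated, reads of the shared bases cannot be told apart.

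CRLS1, cardiolipin synthase, joins phosphatidylglycerol to CDP-diacylglycerol and lies on chromosome 20 from 5986739 to 6020697. Its FPKM was 20.5 (19.1 to 21.8) in WT and 22.7 (21.2 to 24.2) in PERK-KO cells, which is a log2 ratio of 0.15 (0.01 to 0.28). PGS1 stood at 0.908 of CRLS1 (0.815 to 1.01) in WT and at 0.708 (0.631 to 0.795) in PERK-KO cells, a log2 change of -0.36 (-0.59 to -0.13). With the median of each length group subtracted it was -0.14 (-0.37 to 0.09), an interval that includes 0. For PTPMT1 over CRLS1 the change as deposited was -0.14 (-0.31 to 0.03), and it was 0.08 (-0.09 to 0.25) after that subtraction. PGS1 stood at 0.397 of PTPMT1 (0.359 to 0.438) in WT and at 0.342 (0.307 to 0.381) in PERK-KO cells. The log2 change of this ratio was -0.22 (-0.43 to -0.004), an interval that stayed just below 0. The subtraction leaves it as it is, because PGS1 and PTPMT1 are in the same length group.

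TAZ encodes tafazzin, the transacylase that remodels the acyl chains of cardiolipin and is mutated in Barth syndrome. The row lies on the X chromosome from 153639877 to 153650063, at the tafazzin gene and not at WWTR1, whose protein is also called TAZ. It had 23.8 (21.99 to 25.7) in WT and 25.8 (23.7 to 27.8) in PERK-KO cells, which is a log2 ratio of 0.11 (-0.05 to 0.27). The limits overlapped, and the ratio of CRLS1 to TAZ was 0.859 in WT and 0.881 in PERK-KO cells with a log2 change of 0.04 (-0.17 to 0.24), or -0.18 (-0.39 to 0.03) with the length medians subtracted. TAZ shares 551 bases with DNASE1L1 on the opposite strand, which had 19.9 and 18.2.

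PRELID1 and STOML2, which act on the lipids rather than synthesise them, were the most abundant of the 9 transcripts and both were lower in PERK-KO cells as deposited. With the median of their length group subtracted, the log2 ratio of PRELID1 was -0.01 and that of STOML2 turned to 0.10. PRELID1 carries phosphatidic acid across the intermembrane space, in a complex with TRIAP1, and thereby feeds cardiolipin synthesis. It lies on chromosome 5 from 176730763 to 176733960 and had 144 (137 to 151) in WT and 120 (113 to 127) in PERK-KO cells, which is a log2 ratio of -0.27 (-0.37 to -0.16). Its row shares 1460 bases with MXD3 on the opposite strand, which had 74.9 in WT and 56.6 in PERK-KO cells, which is a log2 ratio of -0.41. The part of MXD3 in the PRELID1 value was not tested.

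STOML2, stomatin-like protein 2, binds cardiolipin and prohibitins and organises inner membrane domains. Its row covers 35099889 to 35103154 of chromosome 9 (minus strand). The FPKM was 157 (152 to 163) in WT and 141 (136 to 147) in PERK-KO cells, which is a log2 ratio of -0.15 (-0.23 to -0.08). The ratio of STOML2 to PRELID1 was 1.09 (1.03 to 1.16) in WT and 1.18 (1.10 to 1.26) in PERK-KO cells. Its log2 change of 0.11 (-0.02 to 0.24) did not separate the libraries.

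**Figure D2:**
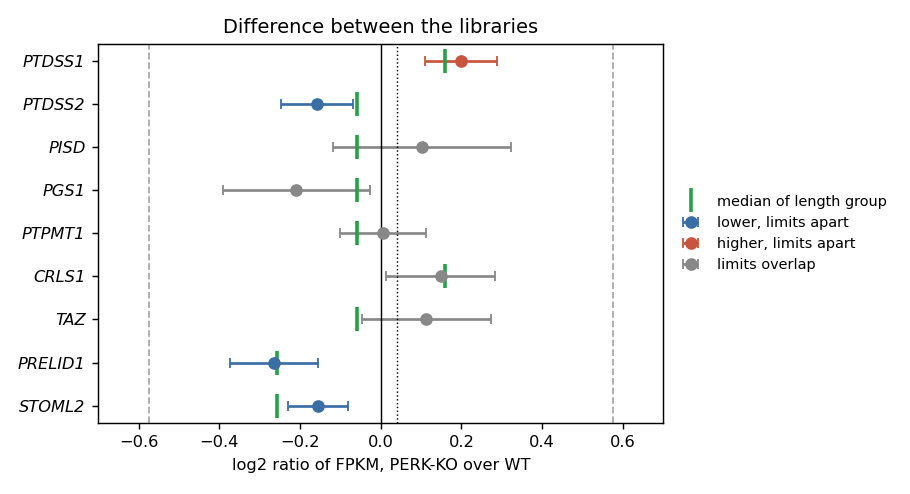
Log2 ratio of FPKM, PERK-KO over WT, for the 9 genes; bars combine the confidence limits of both libraries, dashed lines mark the size threshold, the dotted line is the median of all tested genes, and green ticks are the median of all tested genes in the same group by transcript length. All 9 points lie between -0.27 and 0.20, inside the dashed lines.

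Because the motif bound by GABPα was examined for these cells, the RefSeq promoter windows (GRCh38.p14, from 250 bases before to 50 after a transcription start) were searched for CCGGAAG on both strands. Windows were matched for 7 of the 9 genes, and not for PTDSS1 and TAZ. In these windows PRELID1 and STOML2 held the motif and PTDSS2, PISD, PGS1, PTPMT1 and CRLS1 did not. Whether the windows lie at the starts of the transcripts counted here was not checked. The row of PISD, as given above, does not reach the start of its canonical transcript. Absence from a window is therefore not absence from the promoter in use. Of all 27305 genes with a window, 12.2% held it. GCATGCG, the core of the NRF1 motif, was in none of the 7 and in 4.74% of all genes. The window of TRIAP1, the partner of PRELID1 described further on, held neither motif. The matched sites are printed, with the motif in capitals, because they are those found in the members. A match is a description of these letters and does not show that a factor binds. PRELID1 has 2 copies, which begin 40 and 11 bases before the start, in chr5:177303748-177303777 and chr5:177303777-177303806 on the plus strand. STOML2 has 1 copy, in chr9:35103188-35103217 on the minus strand, which begins 11 bases before the upstream of its 2 annotated starts and 75 before the other.
PRELID1, distal copy: tggcgcgggcgCCGGAAGcggtggctactg
PRELID1, proximal copy: gtgtggctgcgCCGGAAGtggcgcgcggcc
STOML2: ggagggagctgCCGGAAGtacatccggggg

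Ratios between the libraries moved with transcript length. Of the 9 genes, 6 had the direction of their length group, PISD, PTPMT1 and TAZ apart. Because that direction is the sign of the group median, most genes of any group have it, so this count is not particular to the 9. When the tested genes were divided into 5 equal groups by the length of their canonical transcript, the median log2 ratio was -0.26 in the shortest group, of up to 1682 bases, and then -0.06, 0.06, 0.16 and, above 5609 bases, 0.28. PRELID1, of 1226 bases, and STOML2, of 1365, fall in the shortest group, where 42.5% of genes were lower with separate limits and 4.89% higher. PTDSS1 and CRLS1 fall in the fourth group, where 9.77% were lower and 38.4% higher. The other 5 genes are in the second group, where 23.7% were lower and 14.5% higher.

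Set against the median of its own length group, PRELID1 differed by -0.01, CRLS1 by -0.01 and PTDSS1 by 0.04 on the log2 scale. STOML2 was 0.10 above its group. TAZ and PISD were 0.17 and 0.16 above theirs and PTPMT1 0.07 above, while PGS1 and PTDSS2 were 0.15 and 0.10 below. With the group median subtracted from each ratio, a step chosen once these values were known, the limits of WT and PERK-KO overlapped for all 9 genes. Of the 13507 tested genes with a transcript length, 20.4% were still lower and 20.4% higher with separate limits after this step. What makes the ratios move with length in these libraries was not tested.

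**Figure D3:**
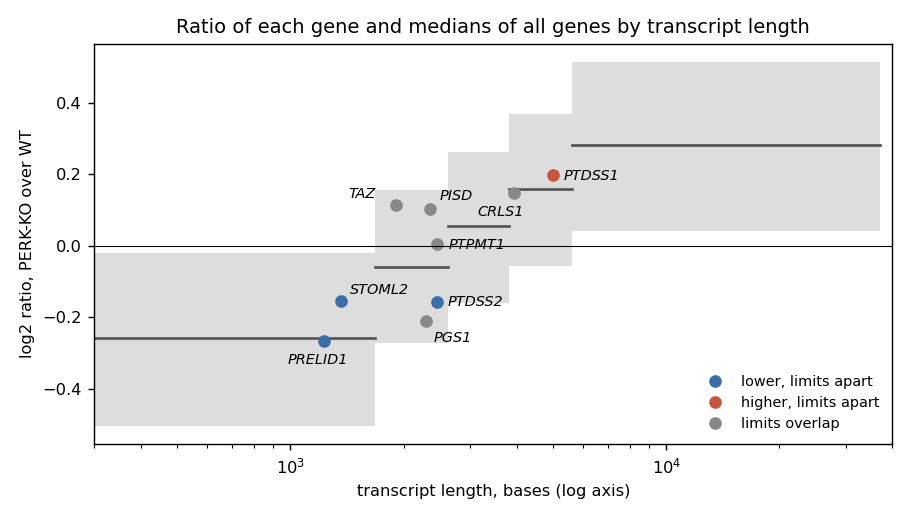
Log2 ratio, PERK-KO over WT, against canonical transcript length (log axis, drawn from 300 bases) for the 9 genes. Lines and grey boxes are the median and the interquartile range of all tested genes in 5 groups of equal number by length; the medians climb from -0.26 to 0.28, and PRELID1, PTDSS1 and CRLS1 lie on or near the line of their group.

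Beyond the 9, 60 other genes of the same lipid routes were listed by role, and all reached an FPKM of 1 in at least 1 library. Of these, 2 were lower and 8 higher in PERK-KO cells by more than the size threshold, beside 7.83% and 10.5% of all tested genes. Their limits were separate for 14 lower and 22 higher genes, beside 18.7% and 26.1%, and their median log2 ratio was 0.13. Their transcripts are long, the median being 3895 bases, whereas it is 2358 for the 9. With the median of the length group subtracted, 2 were lower, PLSCR3 and TRIAP1, and 2 higher, VPS13D and PCYT1A. Under the same step 757 of the 13507 tested genes with a transcript length were lower and 897 higher by more than the threshold.

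TRIAP1, the partner that PRELID1 needs for the transfer of phosphatidic acid, differed far more than PRELID1 itself. It lies on chromosome 12 from 120881764 to 120884215 and had 78.4 (74.4 to 82.4) in WT and 43.2 (40.0 to 46.3) in PERK-KO cells, which is 1.82-fold lower. Its log2 ratio was -0.86 (-0.99 to -0.73), and it was still -0.60 after the median of its length group was subtracted. TRIAP1 stood at 0.544 of PRELID1 (0.507 to 0.585) in WT and at 0.360 (0.328 to 0.395) in PERK-KO cells. The log2 change of that ratio, which was computed after both values had been seen, was -0.60 (-0.76 to -0.43).

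The 11 proteins of the lipid transfer list were divided in direction. TRIAP1 was the 1 lower by more than the threshold, SLMO2, a relative of PRELID1 named outside the rule, was lower within it with separate limits and a log2 ratio of -0.23, and VPS13D and VPS13A, long bridge-like proteins that carry lipids at contact sites, were higher. VPS13D had 1.62 (1.46 to 1.78) in WT and 3.26 (3.01 to 3.52) in PERK-KO cells, which is a log2 ratio of 1.01. VPS13A had 3.66 (3.38 to 3.95) and 5.70 (5.32 to 6.08), a log2 ratio of 0.64. Their transcripts are long, 16355 and 15227 bases, and with the median of the longest group subtracted the ratios were 0.73 and 0.35. The median of the list was -0.07, and its 1 lower and 2 higher genes stand beside 7.83% and 10.5% of all tested genes. Limits were separate for 2 lower and 4 higher genes of the list, beside 18.7% and 26.1%. VPS13C and OSBPL8, also named outside the rule, were higher within the threshold with separate limits, at 0.52 and 0.40. SLMO1 and PRELID2 had overlapping limits.

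The list of genes that make or use phosphatidic acid or CDP-diacylglycerol comprised 14, of which none was lower and 2 were higher by more than the threshold. Of all tested genes 7.83% were lower and 10.5% higher by as much, and the transcripts of this list are long, with a median of 5342.5 bases. CDS1, a CDP-diacylglycerol synthase of the ER, had 4.39 (3.94 to 4.84) in WT and 6.55 (5.96 to 7.13) in PERK-KO cells, which is a log2 ratio of 0.578 that is just past the threshold. AGPAT5, a mitochondrial acyltransferase that makes phosphatidic acid, had 4.67 (4.25 to 5.09) and 7.03 (6.48 to 7.58), which is 1.51-fold. After rescaling to the median of all tested genes neither passed it. Limits were separate for 2 lower and 5 higher genes of the list, beside 18.7% and 26.1% of all tested genes. The 2 lower, named outside the rule, were its most abundant. AGPAT2 had 149 in WT and 111 in PERK-KO cells, a log2 ratio of -0.43, and falls in the shortest length group, of median -0.26. AGPAT1 had 91.4 and 78.4, a log2 ratio of -0.22. TAMM41, named outside the rule because it makes the CDP-diacylglycerol that PGS1 and CRLS1 use, had 5.56 (4.54 to 6.59) and 5.97 (4.84 to 7.11), with overlapping limits.

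Of 9 other enzymes of cardiolipin remodelling and turnover, 1 was lower and 2 were higher by more than the threshold, beside 7.83% and 10.5% of all tested genes. PNPLA8, a mitochondrial phospholipase, had 3.93 (3.50 to 4.35) in WT and 6.11 (5.53 to 6.68) in PERK-KO cells. LPGAT1, an acyltransferase of phosphatidylglycerol, had 8.31 (7.84 to 8.78) and 12.96 (12.3 to 13.6). PLSCR3, a mitochondrial scramblase that moves cardiolipin between leaflets, was at 11.2 (9.89 to 12.5) and 6.02 (4.92 to 7.13), with a log2 ratio of -0.89. A read-through transcript, C17orf61-PLSCR3, covers the same bases of chromosome 17 and differed in the opposite direction, with 3.001 (2.19 to 3.82) and 5.33 (4.25 to 6.41). Summed over both rows the level was 14.2 in WT and 11.4 in PERK-KO cells, which is a log2 ratio of -0.32. The size of the PLSCR3 difference thus depends on whether the rows are taken apart or together. How reads were assigned between them was not tested.

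**Figure D4:**
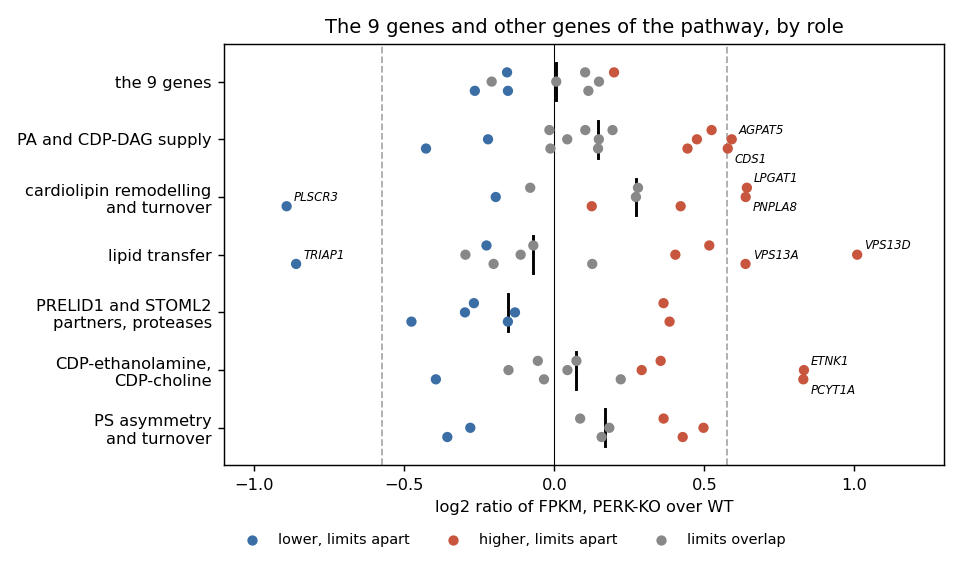
Log2 ratio of FPKM, PERK-KO over WT, for the 9 genes and for 60 other genes of the pathway in 6 lists by role; each point is a gene, black bars are medians and dashed lines mark the size threshold. The 9 genes stay inside the dashed lines, and TRIAP1, PLSCR3 and VPS13D lie farthest out.

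The partners and proteases of PRELID1 and STOML2 had separate limits in all 7 cases, 5 lower and 2 higher, although none passed the threshold. Of all tested genes 44.8% had separate limits, and of the shortest length group, which holds PHB2, DNAJC19 and PARL, 42.5% were lower with separate limits. PHB2, a prohibitin that STOML2 binds, had 321 (306 to 335) in WT and 288 (275 to 302) in PERK-KO cells, which is a log2 ratio of -0.16, close to that of STOML2. STOML2 stood at 0.491 of PHB2 in both libraries. Of the other prohibitin, PHB, it stood at 0.815 in WT and 0.881 in PERK-KO cells, a log2 change of 0.11 (0.02 to 0.21). With the median of each length group subtracted, the change of STOML2 over PHB was 0.31 (0.22 to 0.40). Both ratios were chosen after seeing the data. Relative to their length group, both PHB2 and STOML2 were 0.10 above the median. The remaining genes of this list are named outside the rule. PHB, PARL, DNAJC19 and AFG3L2 were lower with log2 ratios of -0.27, -0.30, -0.48 and -0.13, which were -0.21, -0.04, -0.22 and -0.19 with the median of the length group subtracted. The proteases YME1L1, which degrades PRELID1, and OMA1 were higher with 0.36 and 0.38, or 0.20 and 0.44 after that subtraction.

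The parallel CDP-ethanolamine and CDP-choline branches make phosphatidylethanolamine and phosphatidylcholine outside mitochondria. None of their 11 genes was lower and 2 were higher by more than the threshold, beside 7.83% and 10.5% of all tested genes. ETNK1, an ethanolamine kinase, had 8.16 (7.55 to 8.77) in WT and 14.5 (12.6 to 16.4) in PERK-KO cells. PCYT1A, the rate-limiting enzyme of phosphatidylcholine synthesis, had 7.28 (6.25 to 8.31) and 12.9 (11.5 to 14.4). Each was 1.78-fold higher, and their log2 ratios of 0.83 were 0.55 and 0.67 with the median of the length group subtracted. Of the 8 genes of phosphatidylserine asymmetry and turnover none passed the threshold. The most abundant, ABHD12, a lipase of lysophosphatidylserine, had 50.8 (47.7 to 53.8) and 41.8 (39.0 to 44.6), a log2 ratio of -0.28.

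Other inner membrane genes are given for scale, without a test. The 42 tested SLC25 carriers, which exchange metabolites across the inner membrane, had a median log2 ratio of 0.04. Of these, 1 was lower and none higher by more than the threshold, beside 7.83% and 10.5% of all tested genes. Of 38 NDUF genes of complex I, 17 were lower by more than the threshold, beside 7.83% of all tested genes. Their median was -0.53, against -0.26 for the shortest length group, and their canonical transcripts had a median length of 696 bases.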

How the data were processed

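Poly(A) RNA libraries of 1 WT and 1 PERK-KO sample of HEK293 cells were analysed. Per the labels and the methods of the study, reads were mapped to GRCh37/hg19 with TopHat2 2.0.13. The authors computed FPKM with Cufflinks 2.2.1 and Cuffdiff and deposited it for each gene with lower and upper confidence limits. The source of the gene annotation and strand-specific counting are not given in the sources used here. No counts are in the files, so no count model was used.

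Log2 ratios were taken from FPKM as deposited, without a pseudocount. The half-widths of the limits, relative to the value, were combined in quadrature into an interval. If a limit is 2 standard deviations of a Poisson count, the limits correspond to between 349 (PISD) and 3418 (STOML2) fragments in WT and between 332 and 2689 in PERK-KO cells. Limits and intervals cover the error within 1 library only, and not the variation between cultures. The tested genes are those that reached an FPKM of 1 in either library. They were compared with the size threshold of the study, 0.575 on the log2 scale. Transcript lengths were those of GENCODE 44 canonical transcripts on GRCh37, matched by current or older symbol and position for 92.6% of tested genes and all 9 members. Gene rows on alternate haplotypes were left out of the lists. The members and lists were chosen with earlier results of these data known. Beside the 9 members and EIF2AK3, the genes named are those of each list past this threshold with separate limits, or else its gene of highest WT level. Exceptions are stated, and the markers, overlapping genes and reference families are named as such. No genes of most similar pattern were sought, since with 2 libraries a pattern is 1 ratio. The calculations were tested on simulated data. Python 3.11.15, numpy 2.4.6, pandas 2.3.3 and matplotlib 3.10.9 were used.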

Additional observations from a re-analysis of the deposited data

How the results depend on the processing

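With 1 sample per genotype, leaving out a replicate was not possible. No paired analysis was possible because each genotype has 1 sample. No member passed the size threshold under any alternative tried, which were log2 thresholds of 0.32 and 1, pseudocounts of 0.1 and 1, other filters on FPKM and 3 other scalings. The threshold of 1, the pseudocounts and the filters could not have added a member. The lowest member, PISD, was at 8.38 in WT, above every filter, and a pseudocount only shrinks a ratio. The share of all genes past 0.32 was not computed. For the members' log2 ratios, the pseudocounts and the uniform shifts of 0.04 and 0.03 are small beside the intervals. Only the length step could therefore move a ratio out of its interval. Of all 45 alternatives, most of which could thus not differ, 41 stayed within the interval and kept the sign of those with separate limits. The other 4 came with the median of the length group subtracted, where STOML2 reversed to 0.10 and PTDSS1, CRLS1 and PRELID1 came to 0.04, -0.01 and -0.01. PHB2 reversed to 0.10 as well. The count of members with separate limits, 3 lower and 1 higher, was 0 and 0 with that subtraction, applied to this count after seeing the data. Among the 13507 tested genes with a transcript length, 20.4% were lower and 20.4% higher with separate limits under it. The count of members was also 0 and 0 with limits of 2 times their half-width, for which the share of all genes was not computed. It was unchanged with the median of tested genes set to 0, a shift of 0.04, or, also added after seeing the data, with the 75th percentile made equal. The 2 lower and 8 higher genes of the other lists were 6 and 20 at a log2 threshold of 0.32 and 0 and 1 at 1. The share of all genes at these thresholds was not computed. With the length medians subtracted they were 2 and 2, beside 757 and 897 of the 13507 tested genes with a transcript length. Summing rows with the same gene name could not alter the ratios between members, since each member has 1 row. The shorter motif CCGGAA was again found in 2 of the 7 members with a window, beside 20.1% of all genes. The number of fragments limits the detection of small differences most for PISD, whose limits were 10.7% of the value in WT and 10.98% in PERK-KO cells.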

Other observations

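AGPAT1 and ABHD16A, which belong to the listed lipid genes, each have 6 further rows on alternate haplotypes of the reference, and these were listed at 0 in both libraries.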
